A study of Mus musculus with 5 samples.

Results

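Copy number along the autosomes was read from sequencing depth in non-overlapping 1 Mb windows of the mouse genome (assembly mm9). Of the 2482 windows on the 19 autosomes, 2386 had at least 80% of their bases known and were kept, so the windows were chosen by assembly sequence alone and not by depth. The files came from CCE cells, a mouse embryonic stem cell (ESC) line used here below passage 15, with no genetic change or drug named in the labels of any sample. They hold sonicated genomic DNA without antibody (Input, 1 sample) and chromatin immunoprecipitated with either of 2 antibodies against Pcgf6, a Polycomb group RING finger protein (Santa Cruz, 2 replicates, and Abcam, 2 replicates). The cells had been fixed with paraformaldehyde after disuccinimidyl glutarate, and no source used here says that any of the samples came from separate cultures.

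In a diploid genome, reads from total DNA fall on each stretch in proportion to its copies, so a chromosome present in an extra copy takes more reads than its neighbours. ChIP reads carry the same information, because most of them come from background DNA rather than from bound sites. Mouse ESCs in long culture are known to acquire extra chromosomes, 8 and 11 among the best known, and male lines such as CCE carry a single X. Depth also follows base composition, through amplification, and the share of a window that is unique in the assembly, through alignment.

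The Input file held 22801019 fragments of 300 bases and the ChIP files between 2289586 and 2849825. The median window held 8825 fragments in Input, a counting error of 1.06%, against 937 in Santa Cruz (3.27%) and 1147 in Abcam (2.95%). The 2 replicates of an antibody differed by less than sampling noise, with a chi-square per degree of freedom of 0.242 over windows for Santa Cruz and 0.231 for Abcam, so each pair was averaged and counted as 1 sample. Santa Cruz and Abcam differed by 1.127 to 1.154 on the same scale. With 1 effective library per group, intervals below cover counting error only, the tests compare libraries and not conditions, and windows are not replicates.

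Some windows held short stretches of very high depth, which a copy-number reading must set apart, and a sequence from 4 such stretches is shown. The first pair, from chr2:98502401-98502550 (within Gm10801) and chr9:3000401-3000550 (within the non-coding gene Gm16869), lies in the 1 kb bins with the highest depth of their windows. Capitals mark the longest run shared by both, 46 bases. The letters resemble the major satellite, the repeat that fills mouse pericentromeres. The third, chr17:39981401-39981550, has no annotated gene, and capitals mark its 21 CG dinucleotides. It is known as part of the ribosomal RNA precursor, a gene that cells carry in many tandem copies. The fourth, chr11:3092401-3092550, lies in an intron shared by the overlapping models of Sfi1 and Drg1, and its single CG is in capitals. Its 1 kb bin, at 49.4 times the uncorrected autosomal median in Input, lies beside the deepest bin of its window, at 98.1 times. All 4 are plus-strand sequence of 150 bases from the mm9 assembly.

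chr2 satellite: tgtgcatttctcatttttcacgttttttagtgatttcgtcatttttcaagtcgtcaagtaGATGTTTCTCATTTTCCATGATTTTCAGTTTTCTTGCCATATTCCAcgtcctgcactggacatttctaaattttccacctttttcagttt
chr9 satellite: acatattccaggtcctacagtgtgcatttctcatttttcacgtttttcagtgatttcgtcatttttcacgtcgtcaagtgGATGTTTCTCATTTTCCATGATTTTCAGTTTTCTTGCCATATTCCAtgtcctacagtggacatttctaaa
chr17 ribosomal: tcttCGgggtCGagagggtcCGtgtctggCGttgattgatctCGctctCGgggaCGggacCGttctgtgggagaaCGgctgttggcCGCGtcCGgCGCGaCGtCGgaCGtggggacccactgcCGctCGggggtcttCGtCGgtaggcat
chr11 Sfi1: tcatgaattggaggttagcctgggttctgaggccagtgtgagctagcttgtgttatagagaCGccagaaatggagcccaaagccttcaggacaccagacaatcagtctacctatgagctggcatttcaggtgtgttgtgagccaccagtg

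Raw depth followed base composition. GC content of the windows ran from 35.7% to 53.7%, with a median of 41.7%. The fitted curve of relative depth (depth over the autosomal median) rose 7.64-fold from 36% to 50% GC in Input, from 0.291 to 2.22. It rose 4.03-fold in Santa Cruz and 4.12-fold in Abcam. The antibodies stood above Input in AT-rich windows, 1.42-fold for Santa Cruz at 36% GC, and below it in GC-rich ones, 0.749-fold at 50%. Across the 2386 windows the Spearman correlation of uncorrected Input depth with GC content was 0.928, and after dividing by the curve it was 0.0333. All values below are corrected in this way.

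**Figure D1:**
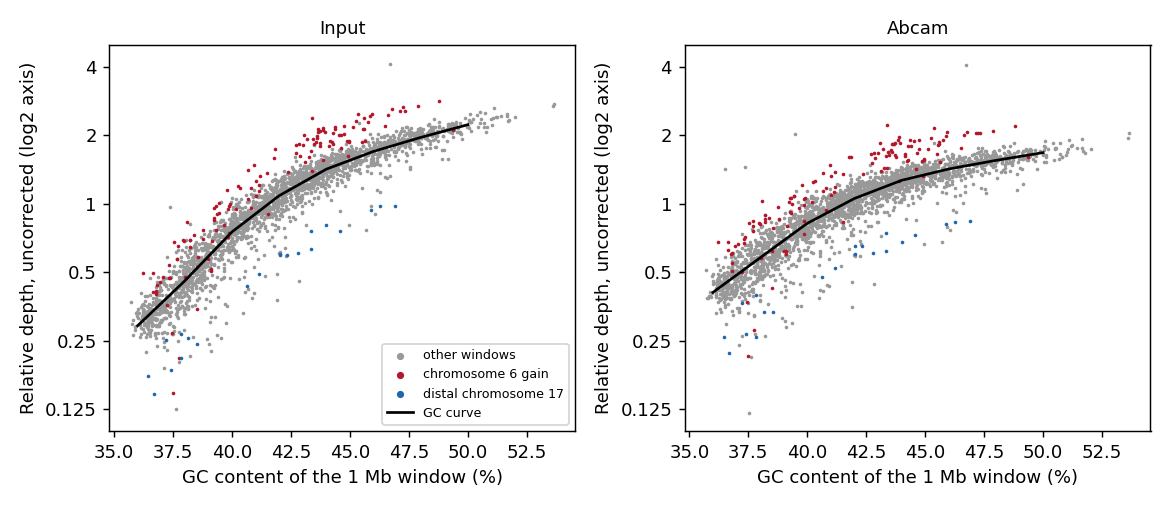
Uncorrected relative depth (log2 axis) against GC content (%) for the 2334 windows in which at least 50% of 31-mers occur once, in Input (left) and Abcam (right), with each library's GC curve in black. Windows of the chromosome 6 gain (red) lie mostly above the curve and those of distal chromosome 17 (blue) mostly below it, and the curve is steeper in Input, from 0.291 at 36% to 2.22 at 50%, than in Abcam, from 0.407 to 1.68.

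Chromosome 6 stood apart from every other autosome. Its median over 146 windows was 1.33 in Input, 1.32 and 1.33 in the Santa Cruz replicates and 1.33 and 1.34 in the Abcam replicates. The 95% counting intervals were 1.331 to 1.335 in Input, 1.315 to 1.327 in Santa Cruz and 1.335 to 1.347 in Abcam. They come from the chromosome's fragment total and leave out the spread between its windows, an SD of 0.254 in Input. Chromosomes 11 and 17 were the next in order, on opposite sides. Chromosome 11 reached 1.09 in Input, 1.078 in Santa Cruz and 1.079 in Abcam. Chromosome 17 was at 0.806 in Input, 0.833 in Santa Cruz and 0.827 in Abcam, and with the median over 1 kb bins in place of the mean it was at 0.775, 0.494 and 0.737. Medians over 1 kb bins are coarse in the antibodies and were not read as copies. The median window depth was 0.282 in Santa Cruz and 0.346 in Abcam, against 2.65 in Input. The 16 other autosomes lay between 0.941 (chromosome 7) and 1.036 (chromosome 10) in Input, with an SD of 0.0287, between 0.946 and 1.030 in Santa Cruz and between 0.938 and 1.035 in Abcam. Chromosome 12 came after chromosome 7, at 0.953 in Input, 0.963 in Santa Cruz and 0.938 in Abcam. Chromosome 8 was within that range, at 1.001 in Input, 1.006 in Santa Cruz and 1.005 in Abcam. Without the GC correction chromosome 11 would have led, at 1.53 in Input against 1.17 for chromosome 6.

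The scale of these values is relative. Were the other autosomes present in 2 copies in every cell, 3 copies would give 1.5 and a single copy 0.5, and chromosome 6 stayed below the first of these in every file. Chromosome X, a single copy in male cells and outside the autosomal rule, gave 0.416 in Input, 0.436 in Santa Cruz and 0.422 in Abcam, below 0.5 in each. Its windows are less unique than autosomal ones, with a median of 75.5% of 31-mers occurring once against 87.2%.

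Dividing depth by that unique share before the GC correction, a step chosen after seeing the data, left 2334 windows with at least 50% unique 31-mers. It moved X to 0.465, 0.490 and 0.481 in Input, Santa Cruz and Abcam, chromosome 6 to 1.31, 1.32 and 1.31, chromosome 11 to 1.07 in each, and chromosome 17 to 0.864, 0.874 and 0.870. The SD of the 16 other autosomes in Input fell from 0.0287 to 0.0207. These doubly corrected values are called unique-corrected below.

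**Figure D2:**
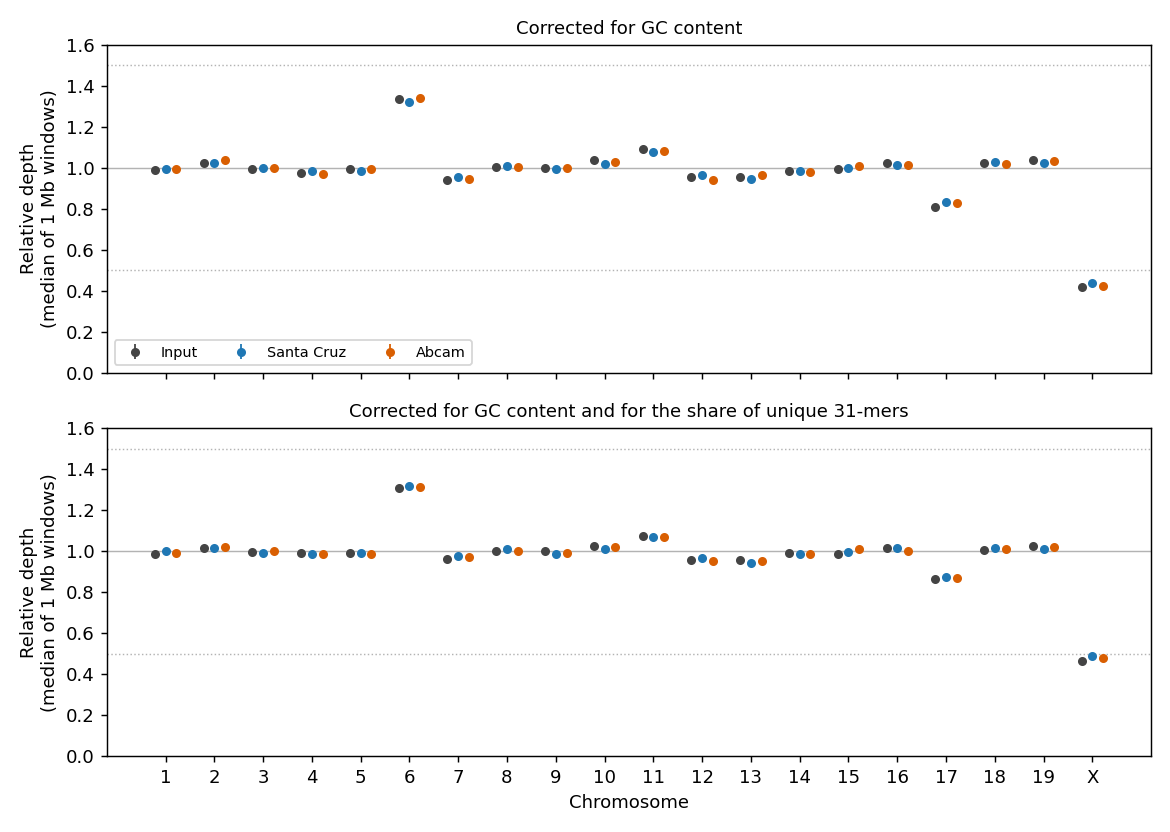
Median relative depth of the 1 Mb windows of each chromosome (categories on the horizontal axis) in Input, Santa Cruz and Abcam, corrected for GC content (upper) and also for unique 31-mers (lower). Points carry 95% counting intervals, mostly smaller than the symbol, the solid line marks 1 and dotted lines mark 0.5 and 1.5. Chromosome 6 lies near 1.3, chromosome 17 between 0.806 and 0.874 and X between 0.416 and 0.490 in every library and panel.

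The chromosome 6 gain was not seen in the depth of the centromere-proximal end, but change points separated that end only in some settings. Change points in the Input windows put the whole chromosome, from 3 to 149 Mb, in 1 segment with a median of 1.33, whose first window was at 0.689 and last at 1.52. The unique-corrected values at the same penalty also kept 1 segment, in Input and when Santa Cruz or Abcam defined the change points. With a lower penalty on change points, or with a robust variance, unique-corrected Input split the chromosome at 15 Mb. The step was placed at 15.6 Mb in 100 kb bins and at 15.56 Mb in 10 kb bins, between the end of Foxp2, a forkhead transcription factor gene (chr6:14851349-15391977), and the start of Mdfic, a gene with a MyoD family inhibitor domain (chr6:15670661-15752169). Left of the step, the 21 bins used to place it had a unique-corrected median of 1.03 in Input, and the 9 bins right of it 1.61. That step was chosen in Input, and in the antibodies, which played no part in the choice, the same bins went from 0.944 to 1.37 in Santa Cruz and from 0.978 to 1.41 in Abcam.

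Over the 133.4 Mb from the step to 149 Mb, 1295 bins of 100 kb had a unique-corrected median of 1.34 in Input, with quartiles of 1.22 and 1.46. The replicates gave 1.33 and 1.34 for Santa Cruz and 1.33 and 1.33 for Abcam. The 12.6 Mb before it had unique-corrected medians of 1.0 in Input, 0.971 in Santa Cruz and 0.976 in Abcam, and its 12 unique-corrected windows of 1 Mb had a median of 0.922 in Input. The gained stretch holds the start sites of 1117 protein-coding genes, 5.22% of those on autosomes, and the stretch before it holds 48, from Samd9l to Foxp2. Of its 133 whole windows 132 were at least 50% unique, and 119 of these were 15% or more above the autosomal median in unique-corrected Input, 121 in Santa Cruz and 115 in Abcam. The unique-corrected values ran from 0.586 to 1.79 in Input with an SD of 0.161, against a counting error of 0.0124, so the spread between windows was larger than counting.

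On chromosome 6, 10 windows were 15% or more below the autosomal median in Input, 4 of them before the step and 6 of them with clusters of receptor or immunoglobulin genes. The lowest, at chr6:130000001-131000000, had a relative depth, without the unique correction, of 0.363 in Input, 0.414 in Santa Cruz and 0.404 in Abcam, and holds 10 Klr genes, the lectin-like receptors of natural killer cells. Only 50.5% of its 31-mers occur once. The windows from 68 to 70 Mb, with 26 and 31 immunoglobulin kappa genes, were at 0.657 and 0.487 in Input, and were 63.9% and 53.4% unique. The window at 57 Mb, with 18 Vmn1r genes (pheromone receptors), was at 0.834, the window at 123 Mb, with 8 Vmn2r genes of the same kind, at 0.617, and the window at 132 Mb, with Tas2r bitter taste receptor genes, at 0.667. The median window, at 102 Mb, was at 1.33 in Input, 1.35 in Santa Cruz and 1.43 in Abcam.

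The highest window of chromosome 6 lay in an inner interval with a further rise. The window chr6:108000001-109000000 was at 1.80 in Input, 1.80 in Santa Cruz and 1.83 in Abcam. In 14 bins of 100 kb from 108.0 to 109.4 Mb, the unique-corrected medians were 1.80 in Input, 1.75 and 1.74 in the Santa Cruz replicates and 1.84 and 1.83 in the Abcam replicates. The flanks were lower, at 1.29 on the left and 1.29 on the right in Input, 1.255 and 1.414 in Santa Cruz, and 1.405 and 1.27 in Abcam. The interval, singled out after its values were seen, holds 6 protein-coding genes. They are Setmar, Sumf1, Itpr1 (a calcium release channel of the endoplasmic reticulum), Bhlhe40 (a clock-linked transcriptional repressor), Arl8b and Edem1. Its 10 bins of 1 kb with the greatest depth held 2.41% of the Input depth of the window, and without them the window was at 1.78.

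Genes fixed as landmarks followed the chromosome on which they lie. The 14 on chromosome 6 had window values of 1.053 to 1.54 in Input with a median of 1.34, and medians of 1.34 in Santa Cruz and 1.33 in Abcam. The 26 found elsewhere had 0.748 to 1.152 with a median of 1.03. Nanog, Dppa3, Gdf3 and Slc2a3, which lie together around the pluripotency gene Nanog, share a window that was at 1.24 in Input, 1.26 in both Santa Cruz replicates, and 1.218 and 1.196 in the Abcam replicates. That window is only 74.9% unique, and its unique-corrected value in Input was 1.47. Met, a receptor tyrosine kinase, was at 1.38, and Ccnd2 and Cdkn1b, a cyclin and an inhibitor of cyclin-dependent kinases, were at 1.37 and 1.44. Ezh2, the methyltransferase of Polycomb repressive complex PRC2, had the lowest of them, 1.053 in Input, against 1.19 in both antibodies. Its window was 77.4% unique, with unique-corrected values of 1.21 in Input, 1.375 in Santa Cruz and 1.373 in Abcam. In the exact binomial test of single windows described further on, both antibodies passed against Input there, each with a ratio of 1.13 (adjusted binomial p = 0.00563 and 0.00173 in that order). Outside chromosome 6, Sox2 was at 1.12, Klf4 at 1.03 and Pcgf6 itself, on chromosome 19, at 1.047. Pou5f1, which encodes Oct4, lies in the proximal part of chromosome 17 and was at 0.828 in Input, 0.830 in Santa Cruz and 0.843 in Abcam. Ring1, a Polycomb gene also on chromosome 17, was at 0.748, the lowest of the landmarks. The Pou5f1 window was 80.35% unique, with unique-corrected values of 0.937 in Input, 0.939 in Santa Cruz and 0.954 in Abcam. For the Ring1 window, 81.51% unique, they were 0.835, 0.892 and 0.840.

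**Figure D3:**
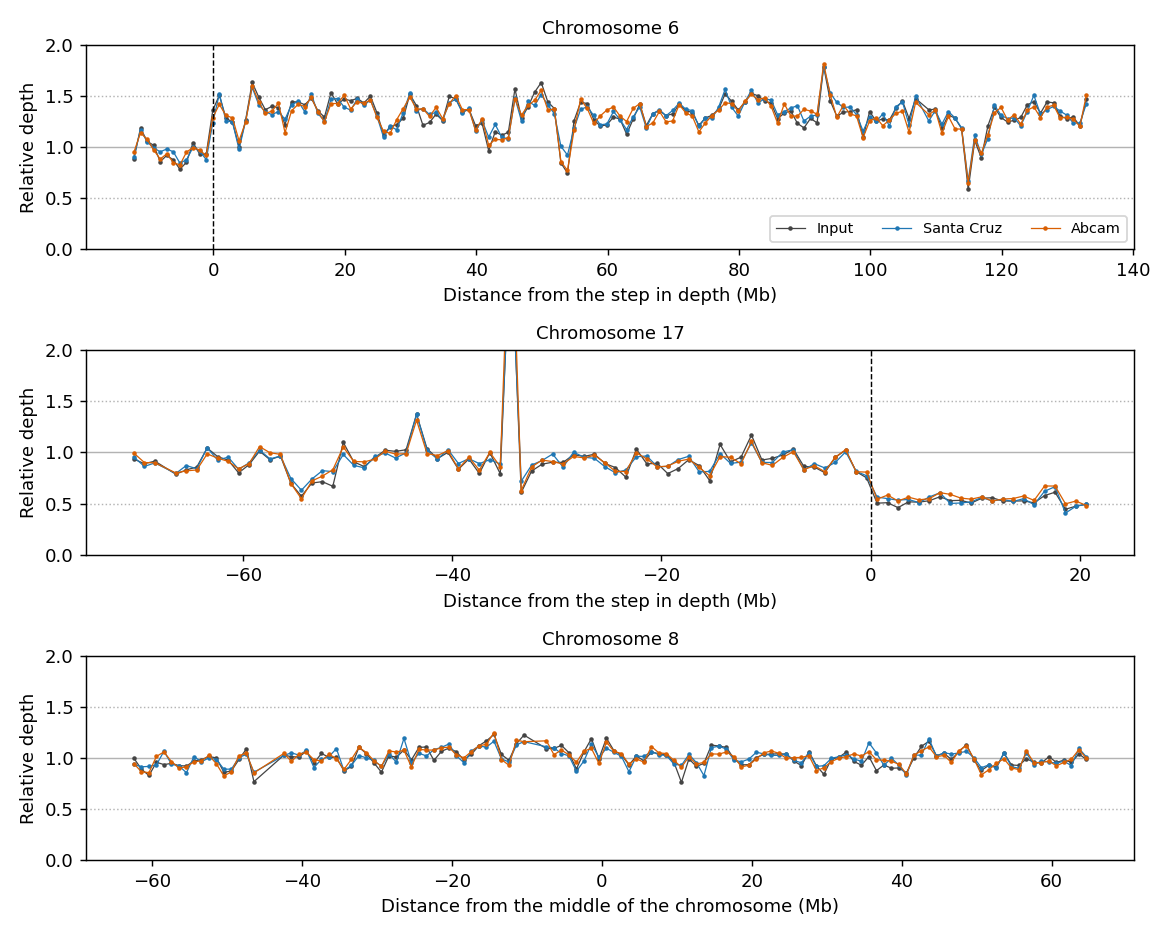
Unique-corrected relative depth of 1 Mb windows along chromosomes 6, 17 and 8 in Input, Santa Cruz and Abcam, against distance in Mb from the step in depth (dashed line) or from the middle of chromosome 8. Windows rise to a median of 1.33 right of the chromosome 6 step and fall to 0.524 right of the chromosome 17 step in Input, while chromosome 8 stays near 1, and the chromosome 17 window with the ribosomal sequence exceeds the axis at 3.19 in Input.

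Chromosome 17 was divided in depth. In the unique-corrected values, its last 21 windows, from 74 to 95 Mb, formed a segment in Input at the penalty used throughout, and the same segment when Santa Cruz or Abcam defined the change points. Each of the 21 windows was 15% or more below the autosomal median in every library. They ran from 0.445 to 0.611 in Input, from 0.407 to 0.665 in Santa Cruz and from 0.481 to 0.672 in Abcam. Over 210 bins of 100 kb from 73.9 Mb on, the unique-corrected medians were 0.524 in Input, 0.540 and 0.536 in the Santa Cruz replicates, and 0.555 and 0.550 in the Abcam replicates. The 70.9 Mb before it had 0.913 in Input, 0.910 in Santa Cruz and 0.911 in Abcam. The distal values were close to, and slightly above, those of X in the same bins, which were 0.467, 0.484 and 0.476.

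The segment's first and last windows were at 0.923 (3 Mb) and 0.477 (94 Mb) in Input before the unique correction, when the segment covered the whole chromosome. The step was at 73.9 Mb in 100 kb bins and at 73.94 Mb in 10 kb bins, inside Galnt14, a gene for an enzyme that starts O-linked glycosylation (chr17:73842568-74059793, minus strand). The 14 bins left of it had a unique-corrected median of 0.776 in Input and the 15 right of it 0.507. In the antibodies the medians went from 0.764 to 0.584 in Santa Cruz and from 0.835 to 0.518 in Abcam. The distal stretch holds the start sites of 101 protein-coding genes, 0.472% of those on autosomes. Among them are Birc6, an inhibitor of apoptosis, Sos1, a Ras exchange factor, Epas1, a hypoxia-inducible transcription factor, and Epcam, a surface protein of epithelial and pluripotent cells. These were named after the stretch had been seen.

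Smaller departures lay on chromosomes 9 and 4. On chromosome 9, the window chr9:84000001-85000000 was at 1.68 in Input, 1.602 in Santa Cruz and 1.48 in Abcam, among the 5 highest of all windows in Input. The rise spanned 83.6 to 85.2 Mb. In its 16 bins of 100 kb the unique-corrected medians were 1.61 in Input, 1.52 and 1.57 in the Santa Cruz replicates, and 1.41 and 1.45 in the Abcam replicates, against 0.993, 0.989 and 0.981 in Input, Santa Cruz and Abcam over the rest of the chromosome. It was too short for the minimum of 3 windows per segment and was singled out after its values were seen. It holds Elovl4, an elongase of very long fatty acids, Ttk, a kinase of the spindle checkpoint, Bckdhb, a subunit of the branched-chain keto acid dehydrogenase, and the predicted genes Gm5919 and Gm8226. The window chr4:112000001-113000000 had the lowest unique-corrected value in Input, 0.171. Before that correction it was at 0.149 in Input, 0.195 in Santa Cruz and 0.226 in Abcam, with 70.6% of its 31-mers unique. It holds 4 Skint genes. In the binomial test described further on it passed for Abcam against Input, with a ratio of 1.52 (adjusted binomial p = 0.00552), and not for Santa Cruz. Unique-corrected Input at a penalty of 5, or with a robust variance, gave a named segment from 111 to 114 Mb. Its medians were 0.378 in Input, 0.485 in Santa Cruz and 0.492 in Abcam.

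**Figure D4:**
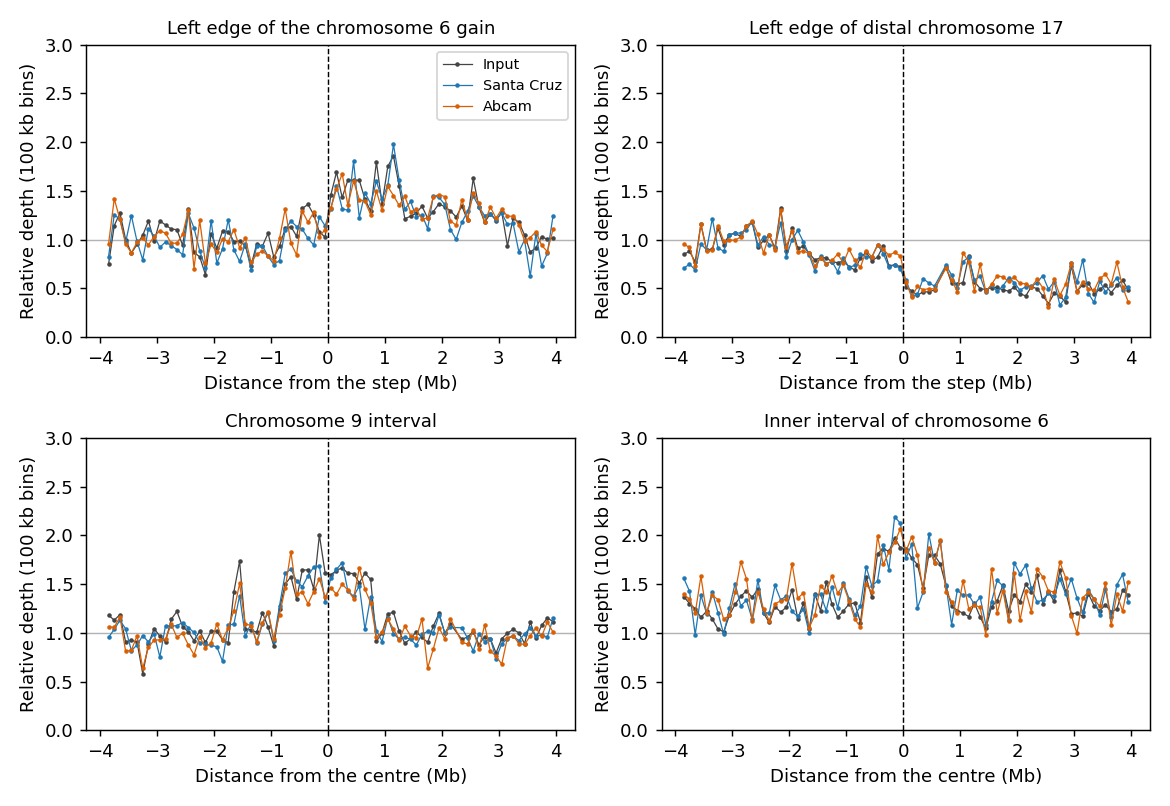
Unique-corrected relative depth in 100 kb bins of Input, Santa Cruz and Abcam against distance in Mb from the chromosome 6 and chromosome 17 steps (upper) and from the centres of the chromosome 9 interval and the inner interval of chromosome 6 (lower). The lines of the libraries move together, rising to medians of 1.61 in the chromosome 9 interval and 1.80 in the inner interval in Input.

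Across the kept windows, 315 (13.2%) were 15% or more above the autosomal median in Input, called high here, and 350 (14.7%) were 15% or more below it, called low. Chromosome 6 held 112 of the high windows, 35.6%, and chromosome 17 held 49 of the low ones, 14.0%. In the unique-corrected values 227 of 2334 windows were high, 121 of them on chromosome 6 (53.3%), and 169 were low, 41 of them on chromosome 17 (24.3%). The high windows overlapped between libraries. Santa Cruz shared 175 of the 227, or 92.1% of its own 190, and Abcam shared 175, or 89.3% of its own 196. Of the 169 low windows, Santa Cruz shared 114 (67.5%, and 82.0% of its own 139) and Abcam 117 (69.2%, and 84.2% of its own 139).

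Before that correction, the share of low windows in Input fell as the unique share rose. All 52 windows with under 50% unique 31-mers were low, and so were 83 of the 90 windows between 50% and 70% (92.2%). The largest number of low windows, 152 of 347 (43.8%), lay between 70% and 80%. Between 80% and 90%, 50 of 1121 were low (4.46%), and of the 776 windows above 90%, 13 were low (1.68%). The 5 lowest of all, at chr7:8, 21 and 22 Mb, chr12:23 Mb and chr14:5 Mb, were between 1.59% and 5.12% unique and at 0.002 or below in Input. Of the 7 segments named without the unique correction, 5 had a median unique share of at most 56.8%. They spanned 3 to 21 Mb of chromosome 7 (a median of 0.462 in Input, 0.501 in Santa Cruz and 0.466 in Abcam, 56.8% unique) and 21 to 24 Mb of the same chromosome (0.000801, 0.00360 and 0.00324, 1.97% unique). The others were 18 to 25 Mb of chromosome 12 (0.0326, 0.0491 and 0.0527, 20.5% unique), and 3 to 8 Mb (0.00770, 0.0286 and 0.0254, 4.65% unique) and 42 to 45 Mb (0.0310, 0.0401 and 0.0461, 8.92% unique) of chromosome 14. The remaining segments were those of chromosomes 6 and 17, and these 2 chromosomes held the named segments in the unique-corrected values at the same penalty. The 50% minimum of unique 31-mers leaves out every window of the chromosome 7 segment at 21 to 24 Mb and both chromosome 14 segments. Of the chromosome 12 segment it keeps only the window at 21 Mb (52.4% unique), under the minimum of 3 windows per segment. The chromosome 7 segment at 21 to 24 Mb and those of chromosomes 12 and 14 could therefore not be called in the unique-corrected values. The chromosome 7 segment at 3 to 21 Mb keeps enough windows but was not named there. Its first and last windows were at 0.714 and 0.733 in Input before that correction and at 1.07 and 1.18 after it. Of the 31 windows with 5 or more vomeronasal receptor genes, 25 were low in Input, with a median of 0.596, and of the 54 with 5 or more olfactory receptor genes, 22 were low, with a median of 0.874.

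The highest window owed most of its depth to a short stretch. The window chr17:39000001-40000000 was the highest in Input, at 2.45, with 2.36 in Santa Cruz and 2.82 in Abcam. The 1 kb bin holding the ribosomal sequence printed above was at 197 times the autosomal median depth, uncorrected, in Input, 264 times in Santa Cruz and 319 times in Abcam. The 10 highest bins held 84.5% of the window's Input depth, and without them it was at 0.383. The second, chr11:3000001-4000000 with Sfi1 and Drg1, was at 2.29 in Input, 2.77 in Santa Cruz and 2.77 in Abcam, and stayed at 2.003, 2.38 and 2.33 without its 10 highest bins. The next 3 were the inner interval of chromosome 6, the window chr6:21000001-22000000 (1.78, 1.73 and 1.74) and the chromosome 9 window.

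Input and ChIP depth moved together from window to window. After GC correction the Spearman correlation over 2386 windows was 0.938 for Santa Cruz and 0.945 for Abcam (Pearson 0.939 and 0.953). Windows share base composition and mappability in all libraries, and without the GC correction the values were 0.989 and 0.990. In unique-corrected values without the chromosome 6 gain and distal chromosome 17, over 2181 windows, they were 0.867 and 0.884, and with each chromosome's median also taken off, 0.853 and 0.871. The unique-corrected Santa Cruz value was within 10% of Input in 95.3% of 2334 windows and the Abcam value in 96.4%, while 14 and 10 windows differed by more than 20%.

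**Figure D5:**
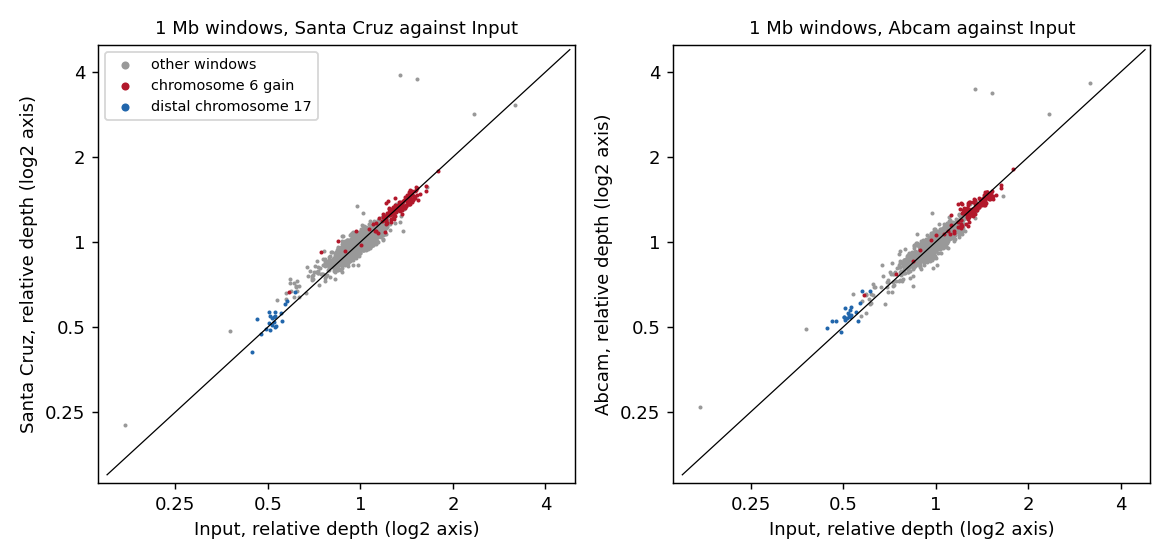
Unique-corrected relative depth of the 2334 windows in Santa Cruz (left) and Abcam (right) against Input, both axes on a log2 scale, with the line of equality. Windows of the chromosome 6 gain (red, median 1.33 in Input) and distal chromosome 17 (blue, median 0.524) lie along the line with the others, and the satellite windows of chromosomes 2 and 9 lie far above it.

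Single windows were compared between libraries with a two-sided exact binomial test on fragments, the GC curves as offset and Benjamini-Hochberg adjustment over all 2386 windows at 0.05. Between Santa Cruz and Input 27 windows differed, 1.13% of those tested, 22 higher and 5 lower in Santa Cruz. Between Abcam and Input 48 differed, 2.01%, 34 higher and 14 lower in Abcam. Both counts rest on the same Input library. In the chromosome 6 gain the counts were 2 of 133 for Santa Cruz (1.504%) and 4 of 133 for Abcam (3.01%), and in distal chromosome 17 they were 0 of 21 and 1 of 21. The Santa Cruz count was 14 without Santa Cruz replicate 1 and 57 without Santa Cruz replicate 2, and without the GC correction the counts were 1800 and 1825.

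Summed over the whole gain, the GC-adjusted ratio to Input was 0.997 for Santa Cruz (exact 95% counting interval 0.992 to 1.002) and 0.990 for Abcam (0.985 to 0.995). In distal chromosome 17 it was 1.02 for Santa Cruz (1.0001 to 1.042) and 1.06 for Abcam (1.041 to 1.081). In the chromosome 9 interval the ratios were 0.959 (0.911 to 1.009) and 0.922 (0.879 to 0.967). The counting interval excluded 1 for Abcam in all of these stretches, below 1 on chromosomes 6 and 9 and above it on chromosome 17. For Santa Cruz it excluded 1 in distal chromosome 17. These stretches were chosen and placed by Input depth, which is also the denominator, so the intervals cannot separate a library difference from that choice. Over the rest of chromosome 9 the ratios were 0.996 for Santa Cruz (0.990 to 1.001) and 0.990 for Abcam (0.985 to 0.995). On X they were 1.037 (1.027 to 1.047) and 1.022 (1.013 to 1.032). Before the chromosome 6 step and in proximal chromosome 17 the intervals of both antibodies included 1.

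The windows with the smallest p against Input included both satellite windows. The satellite window chr9:3000001-4000000 was at 1.03 in Input, 2.99 in Santa Cruz and 2.68 in Abcam, a ratio of 2.91 (2.77 to 3.06) and 2.61 (2.48 to 2.73). The satellite window chr2:98000001-99000000 was at 1.44, 3.56 and 3.19, a ratio of 2.47 (2.33 to 2.62, adjusted binomial p = 1.96e-167) and 2.22 (2.09 to 2.35, adjusted binomial p = 3.73e-141). Without its 10 highest bins, which held 41.6% of its depth in Input and 77.9% in Santa Cruz, the chr2 window was at 0.849, 0.794 and 0.805. Without its own 10 highest bins, which held 27.1% of its depth in Input and 49.4% in Santa Cruz, the chr9 window was at 0.757 in Input, 1.53 in Santa Cruz and 1.44 in Abcam. The Sfi1 and Drg1 window of chromosome 11 had a ratio of 1.21 in each antibody, and chr9:35000001-36000000, which went from 0.838 in Input to 1.151 in Santa Cruz and 1.09 in Abcam, had 1.37 and 1.30. Its 10 highest bins held 8.53% of the depth in Input against 34.8% and 31.1%. The last of the 5 for Santa Cruz was chr1:24000001-25000000, with a ratio of 0.794 (0.739 to 0.853, adjusted binomial p = 3.34e-08), and for Abcam chr4:146000001-147000000, with 1.35 (1.216 to 1.504, adjusted binomial p = 2.42e-05) and 19.8% of 31-mers unique.

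Between Abcam and Santa Cruz 2 of 2386 windows differed (0.0838%), both higher in Abcam, and the count was 5 without Santa Cruz replicate 2, 7 without Abcam replicate 1 and 0 with 1 kb bins over 5 times the median left out. The window chr1:24000001-25000000 was at 1.41 in Input, 1.12 in Santa Cruz and 1.38 in Abcam, a ratio of 1.23 (1.13 to 1.35, adjusted binomial p = 0.00537). Its highest 1 kb bin, chr1:24620001-24621000 within Gm10925, was at 91.5 times the autosomal median depth, uncorrected, in Input, 26.5 times in Santa Cruz and 106 times in Abcam. Every 20-mer of that bin also occurs in the mitochondrial genome. Without the 10 highest bins the window was at 1.03, 0.942 and 0.974. The ribosomal window of chromosome 17 was the other, with a ratio of 1.19 (1.105 to 1.285, adjusted binomial p = 0.00537). The next 3 windows by p did not pass, with adjusted p of 0.170 for the satellite window of chromosome 9 (ratio 0.894), 0.177 for chr3:140000001-141000000 (1.27) and 0.208 for chr2:22000001-23000000 (1.18). In the chromosome 6 gain 0 of 133 windows passed, and in distal chromosome 17 0 of 21.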

How the data were processed

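The deposited signal is read coverage, whole-number depth per interval with no scaling visible in the values. The submitters' processing notes name Bowtie and mm9, and filters and the treatment of duplicates are not given in the sources used here. Over 99.9% of isolated stretches of depth 1 were 300 bases long, so reads had been extended to that length. Depth was averaged over the known bases of each 1 Mb window, divided by the autosomal median and by a lowess curve on GC content (span 0.3, log2 scale). Fragments are summed depth over 300. Change points came from optimal partitioning of log2 values (floor 0.05, at least 3 windows, penalty 10 times the variance of neighbour differences times the log of the window number), and segments 10% or more above or below the median were named. The steps in 100 kb and 10 kb bins were placed by least squares in Input, with the median of 20 GC groups as curve. 31-mers were tested for uniqueness at every 50th base of NCBIM37, the same build, and genes are from GENCODE vM1. Unique shares, fine bins, a robust variance and short stretches were chosen after seeing the data.

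Groups followed the labels. Named windows were the 5 highest and 5 lowest in Input, the lowest, median and highest of chromosome 6, the ends of segments, the 5 smallest p of each test and the windows of the landmark genes, of which Tfcp2l1 was not matched by name. Some landmark genes are not reported here singly. The members, lists and limits were chosen with earlier results of these data known. Scripts were tested on simulated data. Intervals are 95% and cover counting error only, since duplicate fragments cannot be told from independent ones. Alternatives covered the GC correction, window size, known bases, deep bins, the reference median, limits, penalties and replicates. Python 3.11.15, numpy 2.4.6, scipy 1.17.1 and statsmodels 0.14.6 were used.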

Additional observations from a re-analysis of the deposited data

Results flagged for a closer look

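The antibodies differed from each other in 2 windows. The ratio of Abcam to Santa Cruz was 1.23 in chr1:24000001-25000000, whose deepest bin matches the mitochondrial genome, and 1.19 in chr17:39000001-40000000, which holds the ribosomal sequence. In both cases the difference itself was tested between the libraries.

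The sex chromosomes lie outside the autosomal windows and carried signal. Relative depth in Input was 0.416 on X over 163 windows and 0.388 on Y over the 2 windows that passed the rule. On Y the antibodies stood higher, at 0.578 in Santa Cruz and 0.543 in Abcam, and the difference was not tested.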

How the results depend on the processing

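Chromosome 6 was above the autosomal median under all alternatives run, between 1.17 and 1.47. Its values in Input, Santa Cruz and Abcam were 1.17, 1.22 and 1.198 without GC correction, 1.32, 1.31 and 1.33 with the median of 20 GC groups, 1.31, 1.23 and 1.28 with 1 kb bins over 5 times the median left out, and 1.36, 1.47 and 1.45 with the median over 1 kb bins. The last of these settings is coarse in the antibodies, at a median window depth of 0.282 in Santa Cruz and 0.346 in Abcam. In 500 kb windows the antibodies gave 1.34 and 1.32, and with the median and curve taken without chromosome 6 Input gave 1.35 and Santa Cruz 1.33. With unique 31-mers corrected (added after seeing the data), Input and Abcam gave 1.31 and 1.31. Leaving out a replicate gave 1.32 to 1.33 in Santa Cruz and 1.33 to 1.34 in Abcam.

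High and low windows in Input numbered 1013 and 987 without GC correction. In 500 kb windows the counts were 711 and 803, out of a larger total because each window is shorter. Those counts therefore cannot be compared directly with the counts of 1 Mb windows. At limits of 25% above and below the median, high and low 1 Mb windows numbered 143 and 196, and with unique 31-mers corrected 169 were low. Named segments numbered 13 without GC correction, 14 in 500 kb windows, 12 at a penalty of 5 and 21 with a robust variance. With unique 31-mers corrected they numbered 2, also 2 when Abcam defined them, and 3 at a penalty of 5 or with a robust variance. Windows that differed from Input numbered 1800 (Santa Cruz) and 1825 (Abcam) without GC correction. For Santa Cruz they were 52 with 20 GC groups, 62 with deep bins left out and 12 with unique 31-mers corrected. Between antibodies 0 windows differed by the binomial test with deep bins left out (84 at an unadjusted p under 0.05). Leaving out a replicate gave 14 to 57 windows for Santa Cruz against Input, 39 to 60 for Abcam against Input and 2 to 7 between antibodies. The correlation of Input with Santa Cruz and Abcam was 0.989 and 0.990 without GC correction and 0.889 and 0.904 with unique 31-mers corrected. Chromosome 17 in Santa Cruz moved from 0.833 to 0.494 with the median over 1 kb bins, a coarse measure at its median window depth of 0.282. The cause was not tested where a value moved.

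No paired analysis was possible because each antibody has 1 effective library, its 2 files being alike beyond what counting allows, and Input has 1. The counting error of the median window, 3.27% in Santa Cruz and 2.95% in Abcam, limits the differences that single windows can show.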
